A study of Mus musculus with 16 samples.

Results

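The recently stimulated CD8 lymph node cells are 73 cells of the lymph node gene table, selected on their own counts. Each had at least 1 UMI (unique molecular identifier, here 1 counted RNA molecule) for at least 2 of 6 genes: Nr4a1, Nr4a3, Egr1, Nfkbid, Tnfrsf9 and Irf4. These 6 are called gate genes below, and the 73 cells gated cells. The rule also asked for at least 2000 UMIs per cell, which 2929 of the 3266 cells had, so the gated cells were 2.49% of those (exact 95% interval 1.96 to 3.12%). They were compared with the 2377 cells of the same depth in which no gate gene was seen, across the other 9422 genes of the table.

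The cells are labelled CD8+CD44+ T cells, meaning CD8 T cells that carry the antigen-experience marker CD44. They came from the tumor-draining lymph node of 16-week-old C57BL/6 mice with melanoma-associated vitiligo, the loss of skin pigment that follows immunity to melanoma, 45 days after tumor surgery. Lymph nodes were passed mechanically through a 40 µm filter, and matched skin gave a receptor table that is used below only for shared clones. Gated and comparison cells share 1 library, sequenced on 4 lanes that the authors pooled; there is no untreated or tumor-free group, and how many mice went into it is not stated in the sources used.

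When the T cell receptor (TCR) binds its peptide, calcium, kinase and NF-κB signalling switch on early response genes within the cell. Nr4a1 and Nr4a3 encode orphan nuclear receptors, Egr1 a zinc finger factor, Irf4 a transcription factor that scales with receptor signal, Tnfrsf9 the costimulatory receptor 4-1BB, and Nfkbid the nuclear IκB protein IκBNS. In T cells that see antigen again and again, Nr4a factors and inhibitory receptors are known to accompany a restrained state, which is why inhibitory and anergy-associated genes were listed beside the cytokine and growth genes of a productive response.

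With 1 library there is no replicate and no test: every interval below is a 95% interval for counting error only, and cells are not replicates. UMIs were summed over the cells of a side and divided by that side's total, 381183 UMIs for gated and 11202056 for comparison cells, to give CPM (UMIs per 1000000 UMIs of that side). A log2 ratio is gated over comparison cells with 1 CPM added to both, and its interval comes from the counts alone. A gene counts as higher or lower past 1.5-fold, and as called where its interval also lay beyond 0.

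To show what lies upstream of genes in and outside the gate, the 250 bases before a RefSeq start are printed for 2 gate genes, Nr4a1 and Nfkbid, and for 2 genes that were higher in gated cells, Nfkbia and Tagap. They stand 5′ to 3′ on the gene's strand (build GRCm38.p6, the assembly of mm10): Nr4a1 at chr15:101266596-101266845 (+), the second of 3 Nfkbid starts at chr7:30422156-30422405 (+), Nfkbia at chr12:55492648-55492897 (-) and Tagap at chr17:7925750-7925999 (+). In the gene annotation the Nr4a1 and Nfkbid windows lie inside the spans of their own genes, which begin further upstream. The Tagap window ends just before its gene. Capitals mark matches to an EGR motif (GCGGGGGCG or GCGTGGGCG), a κB site, or the cyclic AMP response element CRE (TGACGTCA), on either strand.
Nr4a1: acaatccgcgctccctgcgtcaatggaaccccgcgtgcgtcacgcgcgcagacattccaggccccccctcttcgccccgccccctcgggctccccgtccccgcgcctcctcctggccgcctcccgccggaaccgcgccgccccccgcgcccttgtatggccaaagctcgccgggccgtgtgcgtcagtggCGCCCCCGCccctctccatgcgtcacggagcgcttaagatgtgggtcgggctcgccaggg
Nfkbid: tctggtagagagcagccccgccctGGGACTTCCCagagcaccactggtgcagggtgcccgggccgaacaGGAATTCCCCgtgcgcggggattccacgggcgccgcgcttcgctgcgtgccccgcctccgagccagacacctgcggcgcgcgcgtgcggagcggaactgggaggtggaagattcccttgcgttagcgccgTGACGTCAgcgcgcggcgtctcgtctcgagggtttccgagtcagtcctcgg
Nfkbia: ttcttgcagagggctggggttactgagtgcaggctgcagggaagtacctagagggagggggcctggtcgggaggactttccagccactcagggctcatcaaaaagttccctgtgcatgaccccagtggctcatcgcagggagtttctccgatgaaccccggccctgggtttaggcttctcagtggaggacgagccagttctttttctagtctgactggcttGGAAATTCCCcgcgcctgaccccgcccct
Tagap: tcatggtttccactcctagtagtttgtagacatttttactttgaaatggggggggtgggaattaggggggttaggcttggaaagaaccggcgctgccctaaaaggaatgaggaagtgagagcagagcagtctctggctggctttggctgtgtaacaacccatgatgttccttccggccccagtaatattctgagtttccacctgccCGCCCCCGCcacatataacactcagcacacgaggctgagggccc

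The EGR motif began 60 bases before the Nr4a1 start and 44 before that of Tagap, and is present in 3.06% of all 32851 windows of this length in the RefSeq set. A κB site stood in the windows of Nfkbid (226 and 181 bases before the start) and Nfkbia (29 bases before), against 7.25% of all windows. The CRE was found 51 bases before the Nfkbid start, against 1.55% of all windows. The windows of the other 2 Nfkbid starts held neither a CRE nor a κB site, and of the 13 highest genes with an entry 0 had a CRE, 1 a κB site and 3 the EGR motif. Among the 5 gate genes with an entry, 2 had a κB site, 1 the EGR motif, 1 the CRE and none a CArG box. These are matches of letters, and binding was not measured. The κB site and the CArG box, both defined with ambiguous bases, were searched on both strands like the others.

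Among the gated cells the commonest gate gene was Nfkbid, with 83 UMIs in 49 of the 73 cells. Egr1 had 52 UMIs in 32 cells and Tnfrsf9 52 UMIs in 30 cells. Nr4a3 was seen in 21 cells (32 UMIs), Irf4 in 20 (23 UMIs) and Nr4a1 in 17 (27 UMIs). Most of these sightings were of 1 molecule, the median for every gate gene in the gated cells that held it. The gate therefore rests on few molecules per cell. Exactly 2 gate genes were seen in 57 cells, 3 in 11, and 4 or 5 in 5 cells. The commonest pair was Egr1 with Nfkbid, alone in 14 cells, followed by Nfkbid with Irf4 and Nfkbid with Tnfrsf9, each alone in 7.

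Just outside the rule lay 479 cells with exactly 1 gate gene, 16.4% of the cells with 2000 UMIs, and 1 cell with 2 gate genes but fewer UMIs. In all 15 pairs a gate gene was seen more often where its partner was seen than where it was not, as the plot of pairs shows. Egr1 was seen in 20% of the 40 Nr4a1 cells (interval 9.05 to 35.6%) and in 3.50% of cells without Nr4a1. Nfkbid was seen in 19.3% of Egr1 cells (12.3 to 27.9%) and in 8.90% of the others. For Nfkbid by Nr4a3 the shares were closer, at 11.7% (5.49 to 21.0%) against 9.22%. The pairs are made of the genes of the rule itself, so they describe the gate and are no separate support for it. Deeper cells show more of every gene, and how much of the co-detection follows from depth was not tested.

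**Figure D1:**
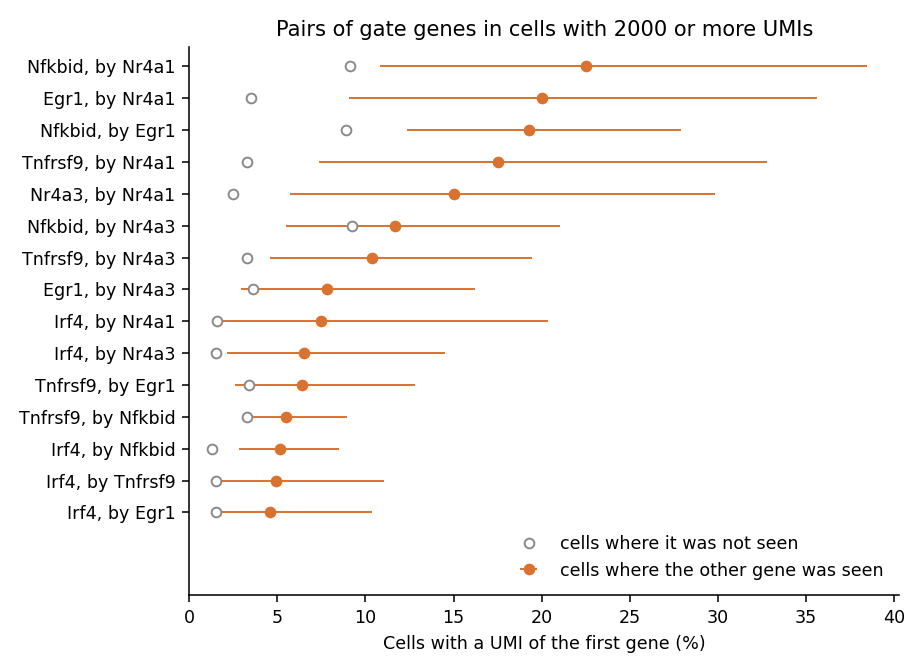
Share of cells with a UMI of the first named gate gene, in cells where the second was seen (filled, exact 95% interval) and where it was not (open), over the 2929 cells with 2000 or more UMIs. The filled point lies to the right of the open one in all 15 pairs, with 11.7% against 9.22% for Nfkbid by Nr4a3 and 20% against 3.50% for Egr1 by Nr4a1.

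Over all 7314 genes with at least 100 UMIs, 840 were at least 1.5-fold higher in gated cells (11.5%) and 735 lower (10%). Asking also for the interval left 336 higher genes (4.59%) and 96 lower (1.31%). The median log2 ratio of all genes was 0.08. The counts with the interval favour genes with many UMIs.

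Gated cells were slightly deeper than comparison cells, with a median of 4937 against 4564 UMIs and 1638 against 1466 genes. Their mitochondrial share was 2.69% against 2.63%, and ribosomal protein genes took 39.7% of their UMIs against 42.9%. By depth the gated share was 2.39% of cells from 2000 and under 4000 UMIs, 2.11% of those from 4000 and under 6000, and 3.67% of those with 6000 or more. After every cell was thinned to 2000 UMIs, 30 cells (1.02%) still met the rule. Of the 4 genes that define the labelled cells none passed 1.5-fold: Cd3e was at 1018 against 894 CPM, Cd8a at 769 against 547, Cd8b1 at 1419 against 1397 and Cd44 at 70.8 against 67.8. B cell markers summed to 249 against 234 CPM, myeloid and dendritic markers to 181 against 214, and NK and γδ T cell markers to 91.8 against 116. CD4 and regulatory T cell markers summed to 34.1 against 12.7 CPM (13 UMIs in gated cells). Of these sums only the last had an interval beyond 0 (log2 ratio 1.43, 0.48 to 2.25).

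Markers of stimulation outside the gate were mostly higher, in part through few cells, though the immediate early genes Fos, Jun and Ier2 were not. Of 9 such markers, 7 could be measured and Egr2 and Egr3 were not analysed here. Rel, the NF-κB subunit c-Rel, had 37 UMIs in 22 gated cells, 97.1 against 32.8 CPM (log2 ratio 1.54, interval 1.04 to 2.06). Cd69, the early activation antigen that also holds T cells in tissue, had 169 UMIs in 55 gated cells, 443 against 270 CPM (0.71, 0.48 to 0.94). Myc, a regulator of cell growth, was at 199 against 113 CPM (0.81, 0.46 to 1.15). Dusp2, a phosphatase of MAP kinases, was at 262 against 186 CPM (0.49, 0.19 to 0.79), under 1.5-fold.

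The other 3 markers rest on few molecules. Tnfrsf4, the costimulatory receptor OX40, had 17 UMIs in 8 gated cells (44.6 against 5.18 CPM), and Cd83 had 11 UMIs in 7 cells (28.9 against 2.68 CPM). Nr4a2, the third Nr4a gene, had 5 UMIs in gated cells, 13.1 against 6.61 CPM, with an interval from -0.68 to 2.28. So 5 of the 7 measured markers were past 1.5-fold with intervals above 0. Of these, Rel, Cd69 and Myc met the limit of 100 UMIs, and 4.59% of all genes that met it were called higher. Tnfrsf4, with 75 UMIs over both sides, and Cd83, with 41, did not meet it. Tnfrsf4 also changed direction with depth: among cells from 4000 and under 6000 UMIs it was lower in gated cells. Without the 5 cells with 4 or 5 gate genes, Myc was at 0.33 and Cd69 at 0.47, both under 1.5-fold, and Rel at 0.98. Myc was seen in 38.4% of gated and 35.0% of comparison cells, and in 19.2% and 18.97% after thinning. Whether the cells had met antigen was not measured.

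Among genes seen in at least 10% of gated cells, the 15 highest that kept their direction in every depth range were led by secreted and TNF family genes. Only the direction was asked of each range: Lta was at 0.05 from 2000 and under 4000 UMIs, and at 3.14 from 6000. Ccl4, the chemokine MIP-1β, had 132 UMIs in 21 gated cells, 346 against 33.6 CPM, a log2 ratio of 3.33 (interval 3.07 to 3.66). Of these UMIs 89 lay in 1 cell, without which the ratio was 1.76 (1.29 to 2.24). Without all 5 cells with 4 or 5 gate genes it was 1.18. Tnfsf14, the TNF family ligand LIGHT, had 17 UMIs in 13 gated cells and no more than 2 in any one, 44.6 against 7.68 CPM (2.39, 1.69 to 3.30). Lta, lymphotoxin alpha, had 18 UMIs in 10 cells, 47.2 against 9.55 CPM (2.19), and 1.40 without the cell that held 8 of them. Tnf itself was at 34.1 against 10.9 CPM, with 13 UMIs in 11 cells (1.56, 0.70 to 2.47).

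Genes tied to the gate's own pathways stood in the same group. Nab2, the corepressor that binds EGR proteins, had 18 UMIs in 16 gated cells, 47.2 against 9.998 CPM (2.13, 1.43 to 2.97). It was seen in 21.9% of gated cells and 4.29% of comparison cells. Tagap, a gene known from activated T cells, had 44 UMIs in 18 cells, 115 against 23.6 CPM (2.24, 1.80 to 2.76). The ratio was 1.83 without the cell that held 12 and 1.24 without the 5 cells with 4 or 5 gate genes. Gadd45b, a stress and NF-κB response gene, was at 34.1 against 8.57 CPM (1.88), and Bcl2a1b, a survival gene of the Bcl2 family, at 89.2 against 26.9 (1.69). Because Bcl2a1b has near-identical copies, its reads may be shared with them.

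Wnt10a, a Wnt ligand that the lists place with anergy-associated genes, was the second highest of the 15. It had 21 UMIs in 12 gated cells, 55.1 against 7.94 CPM (2.65, 2.03 to 3.49). Its ratio was also taken inside and outside cluster 5, described below, each without the gated cell with most of its UMIs. Inside it was 0.86 (14 UMIs, -0.07 to 1.70) and outside 1.06 (1 UMI, -3.86 to 4.28), with both intervals across 0. Irf8, an interferon regulatory factor, had 15 UMIs in 10 cells, 39.4 against 7.86 CPM (2.19). The remaining 5 of the 15, Rilpl2, Arl13b, Eea1, Ssbp3 and AI987944, lay between 1.55 and 1.68, with 12 to 31 UMIs each in gated cells. Every one of the 15 kept a ratio of at least 1.19 without the gated cell that held most of its UMIs. They were chosen for high ratios in these same cells, so this is a description. Split by cluster 5 as for Wnt10a, Lta, Gadd45b, Tnf, Ssbp3, AI987944 and Eea1 also had intervals across 0 on both sides. Lta, for example, was at 0.58 inside and 0.88 outside. Ccl4, Tnfsf14, Tagap, Irf8, Nab2, Bcl2a1b, Rilpl2 and Arl13b had intervals above 0 outside.

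**Figure D2:**
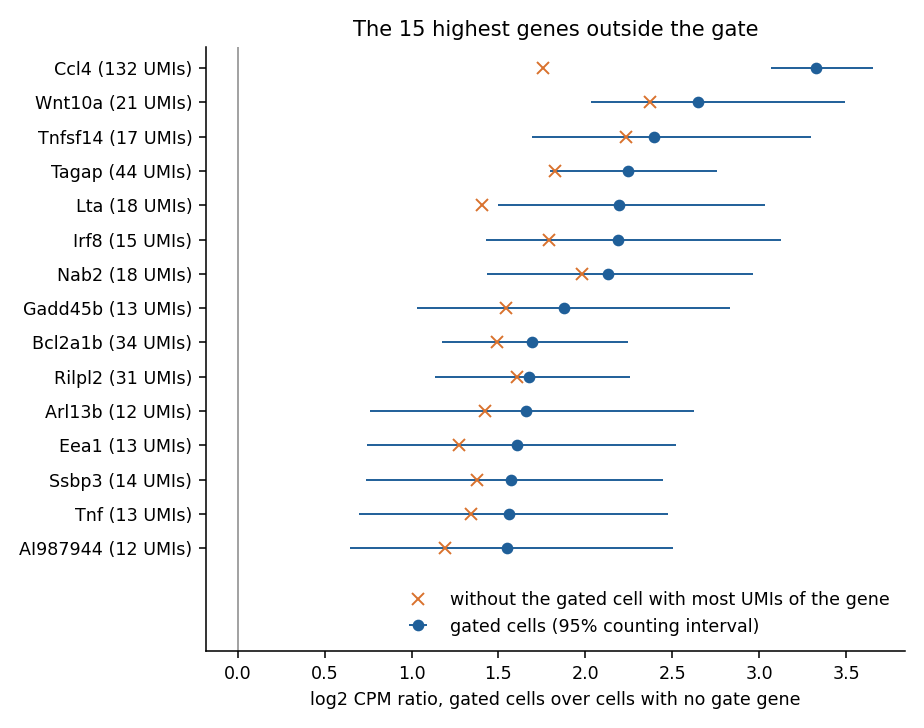
The 15 highest genes outside the gate that met the limits on counts, detection and direction, with their UMIs in gated cells. The limits were at least 100 UMIs over both sides, a UMI in at least 10% of gated cells, and the same direction in every depth range and without barcodes of 2 or more TRB. Points are log2 CPM ratios of gated over comparison cells with 95% counting intervals, and crosses the same ratio without the gated cell with most UMIs of that gene. Ccl4 moves furthest, from 3.33 to 1.76, and Lta goes from 2.19 to 1.40.

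The 15 lowest genes among those that were seen in at least 10% of comparison cells and kept their direction in every depth range each had at most 6 UMIs in gated cells. Gtpbp1, a GTP-binding protein gene, had 2 UMIs in gated and 330 in comparison cells, 5.25 against 29.5 CPM (-2.29, -5.54 to -0.62). Camk1d, a calcium/calmodulin-dependent kinase, had 4 against 387 UMIs (-1.63, -3.60 to -0.35). Chmp5, a subunit of the ESCRT-III membrane complex, had 6 against 556 (-1.60, -3.11 to -0.53). The others, Aff3, Ethe1, Cog8, Yeats2, 2610035D17Rik, Nol9, Vti1a, Ifrd2, Tfap4, Mrps11, Noa1 and Rnf13, lay between -1.61 and -1.47, and they belong to no list used here.

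Transcription factors of TCR signalling had a high share of called genes. Of 8 measured, 7 were called higher, against 4.59% of all genes, and none lower, with a median log2 ratio of 0.91 against 0.08 for all genes. The highest after Irf8 were Ikzf2, which encodes the Ikaros family factor Helios, at 42.0 against 13.5 CPM (1.57, 0.80 to 2.39), and Nfat5 at 39.4 against 15.4 CPM (1.30, 0.49 to 2.12). Of the 16 gated Ikzf2 UMIs 14 lay in cluster 5, a cell cluster described below, and its ratio was 0.60 (-0.33 to 1.43) inside it and 0.18 (-2.86 to 2.12) outside. Batf, an AP-1 partner of Irf4, was at 68.2 against 33.9 CPM (0.99, 0.37 to 1.58), with Nfatc1, Id3 and Myc also called. Tox, the factor of chronically stimulated T cells, was at 42.0 against 28.0 CPM with an interval across 0 (-0.24 to 1.30).

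In the NF-κB list 7 of 25 genes were called higher, against 4.59% of all genes, and none lower, with a median of 0.52. Besides Rel and Bcl2a1b these were Nfkbia, Map3k8, Icam1, Nfkb1 and Cflar. Nfkbia encodes the inhibitor IκBα, itself an NF-κB target, and had 128 UMIs in 44 gated cells, 336 against 153 CPM (1.13, 0.87 to 1.40). Map3k8, the kinase Tpl2, was at 47.2 against 15.9 CPM (1.51, 0.78 to 2.27). Rela, the p65 subunit, was not higher, at 49.8 against 59.3 CPM (-0.25, -0.99 to 0.40). The median depended on few cells: without the 5 cells with 4 or 5 gate genes it was 0.19.

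In the AP-1 and immediate early list 4 of 21 genes were called higher (Gadd45b, Dusp1, Cd69 and Zfp36l1), against 4.59% of all genes, and none lower, while the median was 0.13. Fos was at 47.2 against 46.5 CPM (0.02, -0.74 to 0.70) and Jun at 131 against 127 CPM (0.05, -0.39 to 0.45). Ier2, a further immediate early gene, was at 223 against 219 CPM (0.02, -0.30 to 0.34). Fos and Jun are also known to respond to tissue handling. Of the 11 heat shock genes measured, 1 was called: Hspa5, the endoplasmic reticulum chaperone BiP, at 294 against 139.5 CPM (1.07, 0.78 to 1.35), while the list's median was 0.38. The part of dissociation stress in the result was not tested.

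Feedback inhibitors of TCR signalling were near the median of all genes, at 0.05, with 4 of 25 called higher (4.59% of all genes were) and none lower. The 4 were Dusp10, Ptpn7, Dgkz and Cd5. Dusp10 was at -0.26 outside cluster 5, and at 0.64 (-0.48 to 1.63) without 1 cell. Dgkz, a diacylglycerol kinase that damps receptor signalling, was at 97.1 against 57.9 CPM (0.73, 0.23 to 1.22). Cd5, an inhibitory surface receptor whose level follows receptor signal, had 94 UMIs in 43 gated cells, 247 against 151 CPM (0.71, 0.39 to 1.01). The TCR complex and proximal signalling list held 31 measured genes, of which none was called, with a median of 0.17.

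In the TNF family and costimulation list 4 of 14 genes were called higher (Tnfsf14, Icos, Slamf6 and Slamf7), against 4.59% of all genes, and none lower, with a median of 0.56. Icos, a CD28 family receptor, was at 65.6 against 30.6 CPM (1.07, 0.45 to 1.69). Slamf6 was at 91.8 against 46.2 CPM (0.98, 0.45 to 1.49). Both moved with cluster 5, a cell cluster described below that holds 31.5% of gated and 11.4% of comparison cells: Icos was at 0.57 (-0.21 to 1.28) inside it and 0.01 outside, and Slamf6 at -0.02 inside and 0.65 (-0.26 to 1.46) outside. Of 9 cytokine and chemokine genes, 4 were called higher (Ccl4, Lta, Tnf and Xcl1), against 4.59% of all genes, and none lower. Xcl1, the chemokine that attracts cross-presenting dendritic cells, was at 241 against 91.3 CPM (1.39), or 0.86 without 1 cell that held 29 of its 92 UMIs.

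The inhibitory and anergy-associated list had the highest median of the lists, 1.17, with 7 of 10 genes called higher, against 4.59% of all genes, and none lower. Lag3, an inhibitory receptor, had 21 UMIs in 8 gated cells, 55.1 against 8.39 CPM (2.58, 1.96 to 3.41). Izumo1r, the folate receptor FR4, had 23 UMIs in 9 cells, 60.3 against 18.4 CPM (1.66, 1.02 to 2.34). Cd160 was at 89.2 against 37.9 CPM (1.21, 0.68 to 1.74) and Btla at 42.0 against 18.03 (1.18, 0.38 to 1.95). Ctla4 was at 31.5 against 13.6 CPM (1.16), but 7 of its 12 UMIs lay in 1 cell, without which the ratio was -0.03. Among genes under 100 UMIs, Pdcd1, which encodes PD-1, had 20 UMIs in 6 gated cells against 30 UMIs in all comparison cells (52.5 against 2.68 CPM), and Nrn1 had 23 against 73 UMIs.

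Over all genes, 4.59% were called higher and 1.31% lower. The count of Myc targets and ribosome biogenesis genes was near that share of higher genes. Of 40 Myc target and ribosome biogenesis genes, 2 were called higher (median 0.18), and of 18 glycolysis and nutrient uptake genes 2 were (median 0.16), including the glycolytic enzyme gene Pgam1 at 189 against 115 CPM. Of 21 cell cycle genes, 5 were called higher (median 0.42), led by Stmn1, whose 39 UMIs lay in 6 cells, 16 of them in 1. In the effector and residency list 3 of 26 genes were called higher and 3 lower, with a median of -0.19. Tbx21, the effector factor T-bet, was at 91.8 against 45.1 CPM (1.01, 0.49 to 1.52). All 36 Gzmb UMIs of the gated cells came from 1 cell, a barcode with more than 1 TRB sequence.

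The effector genes called lower were S100a4, Lgals3 and Ccr2. S100a4, a calcium-binding protein of effector memory cells, had 5 UMIs in gated and 660 in comparison cells, 13.1 against 58.9 CPM (-2.09, -3.79 to -0.94). Lgals3, galectin 3, was not seen in gated cells, and its log2 ratio interval reached up to -0.95. A floor of 3 counts over the gated cells equals 7.87 CPM, 2.39-fold under the 18.8 CPM of comparison cells. Lgals3 leads cluster 6, described below, which held 0 gated of 108 cells. Ccr2, a chemokine receptor, had 3 against 264 UMIs (-1.47, -3.87 to -0.02). Of 35 quiescence and recirculation genes 1 was called higher and none lower (median -0.13), against 4.59% and 1.31% of all genes. The called member was Bach2, at 49.8 against 29.3 CPM (0.75, 0.02 to 1.43). Klf2, which maintains quiescence and egress, was at 554 against 727 CPM (-0.39, -0.60 to -0.20), under 1.5-fold. In the interferon response list 4 of 27 genes were called higher, against 4.59% of all genes, and none lower. Isg15 and Ifit1 were among the 4, and the median was 0.03. Of the 55 Isg15 UMIs 21 lay in 1 gated cell, without which its ratio of 1.06 was 0.41. Without the cell with most of its UMIs, Ifit1 went from 1.13 to 0.53 (-0.34 to 1.32) and Isg20 from 1.06 to 0.42 (-0.65 to 1.34), and Ifit1 was at -1.19 inside cluster 5.

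Cells with 1, 2 and 3 or more gate genes were compared with the same comparison cells. The median log2 ratio of the TCR-induced transcription factors to comparison cells was 0.23 in the 479 cells with 1 gate gene, 0.64 in the 57 with 2 and 1.78 in the 16 with 3 or more. For the NF-κB list the medians were 0.16, 0.21 and 1.03, and for the inhibitory list 0.34, 0.95 and 1.33. The AP-1 list showed no such order, at 0.02, 0.24 and 0.01. Tagap was at 25.9, 45.4 and 326 CPM in the same order. Myc targets and ribosome biogenesis genes had medians of 0.03, -0.03 and 0.70, and quiescence genes 0.01, -0.01 and -0.56, so that both lists lay near 0 except in the last bin. In that bin 2 NF-κB genes and 1 quiescence gene had no UMI; with a floor of 3 counts for such genes, left out where both sides were under it, the medians were 1.07 and -0.52. With 16 cells that bin is thin, and its cells were the deepest, at a median of 5922 UMIs. With its 5 cells of 4 or 5 gate genes left out, the 11 cells with exactly 3 gave a transcription factor median of 1.34.

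**Figure D3:**
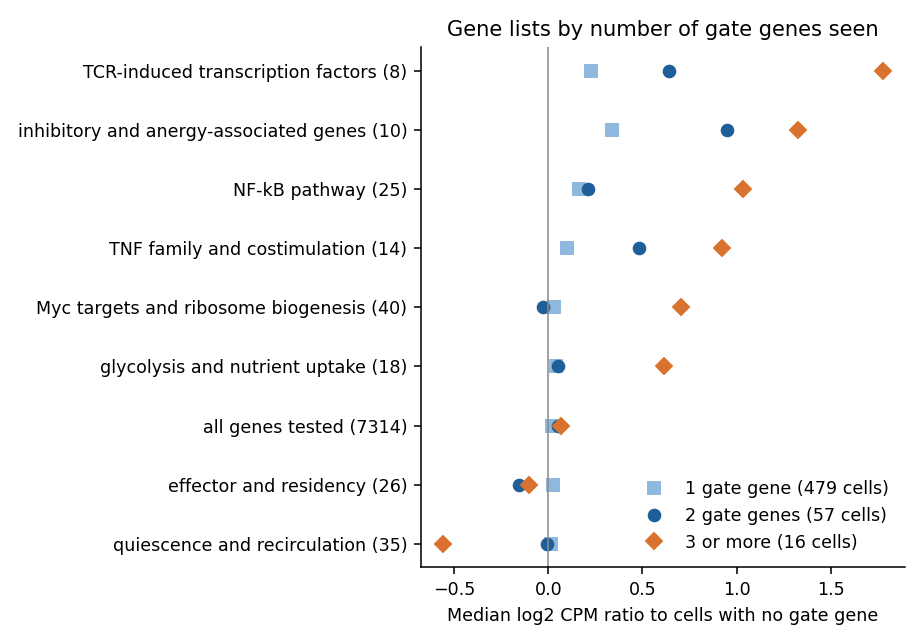
Median log2 CPM ratio of each gene list to cells with no gate gene, for cells with 1, 2 and 3 or more gate genes; the number of genes measured follows each name. The transcription factor, inhibitory, NF-κB and TNF family lists lie above the median of all genes in each bin, and quiescence genes reach -0.56 with 3 or more gate genes.

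The 5 cells with 4 or 5 gate genes were unlike each other. They came from clusters 2, 2, 5, 5 and 3, with 2948 to 9523 UMIs. One of 9523 UMIs held 89 Ccl4, 14 Nfkbid, 12 Tagap, 9 Myc, 8 Lta and 8 Rel molecules and no Xcl1. A second, of 8573 UMIs, held 19 Xcl1 molecules and 1 of Ccl4. Nab2 was the gene outside the gate that all 5 shared among those tabulated, with 1 or 2 UMIs in each, as was Nfkbia with 2 to 5.

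Gated cells were unevenly spread over 7 clusters made without the gate genes, as the plot of cluster shares shows. Cluster 5, led by Izumo1r and Ctla4, held 23 gated of 354 cells (6.50%, 4.16 to 9.59%), which is 31.5% of gated cells against 11.4% of comparison cells. In clusters 0 to 3 the share was between 1.18% and 2.28%, and in cluster 4, led by Rsad2, it was 3.73% (6 of 161 cells). Cluster 6, led by Lgals3 and Gzma, held 0 gated of 108 cells (exact interval up to 3.36%), though Nfkbid was seen in 8.33% of its cells. No cell type that lacks the gate genes was at hand, so the share that free RNA gives was not measured. Cluster 5 was not deep, with a median of 3438 UMIs, and after thinning it held 14 of the 30 remaining gated cells (3.95%, 2.18 to 6.55%), against 0.81% in the next cluster. Since other genes made the clusters, the share is a description.

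**Figure D4:**
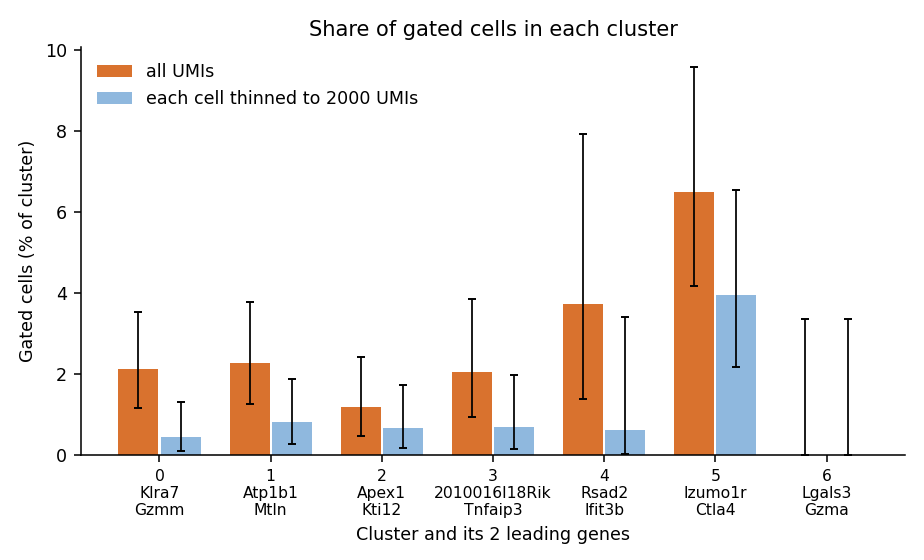
Gated cells as a share of each cluster, from all UMIs and after thinning every cell to 2000 UMIs, with exact 95% intervals. Cluster 5 is highest in both, at 6.50% and 3.95%, and cluster 6 holds none.

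Inside cluster 5 the 23 gated cells were set against its 271 comparison cells, and outside it 50 against 2106. The transcription factor list had a median of 0.71 inside and 0.69 outside, and the NF-κB list 0.61 and 0.33. For the inhibitory list the values were 0.60 and 0.74, or 0.87 and 0.76 over the 9 genes left when 1 gene with no UMI in gated cells was dropped on each side. All 21 Lag3, 23 Nrn1 and 20 Pdcd1 UMIs of gated cells lay in cluster 5. There Pdcd1 was at 180 against 17.4 CPM and Lag3 at 189 against 61.8, while Izumo1r, which leads the cluster, was at 180 against 144 CPM (0.32). Outside, 3 counts in gated cells equal 11.1 CPM, the level of Izumo1r there, which is above the comparison level of Lag3, Nrn1 and Pdcd1, so a difference in these 3 was not detectable. Ccl5, a chemokine of memory cells, was lower in gated cells inside the cluster (log2 ratio -2.24) and level outside (-0.05).

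Single genes differed between both sides of the split, in part through single cells. Nab2 had a log2 ratio of 2.39 outside (11 UMIs) and 0.66 inside (7 UMIs), Tagap 2.41 and 1.56, and Ccl4 3.68 and 1.83. One cell outside held 89 of 126 Ccl4 and 12 of 34 Tagap UMIs, and without it the outside ratios were 1.97 for Ccl4 and 1.84 for Tagap. Inside, likewise without the cell with most UMIs, Ccl4 was at 0.89 (3 UMIs, -1.50 to 2.75). Tagap was at 1.27 there (8 UMIs, -0.04 to 2.45). Xcl1 was at 3.50 inside (57 UMIs in 8 cells) and 0.43 outside, or 2.52 and -0.022 without the cell with most UMIs on each side. Icos, Slamf6 and Ikzf2, called over all cells, had intervals across 0 on both sides. The interferon list had a median of -0.74 inside (-0.59 with genes at 0 set to the floor) and 0.18 outside. The gated cells of cluster 5 had a median of 4239 UMIs against 3301 in its comparison cells. Differences between inside and outside were not tested.

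**Figure D5:**
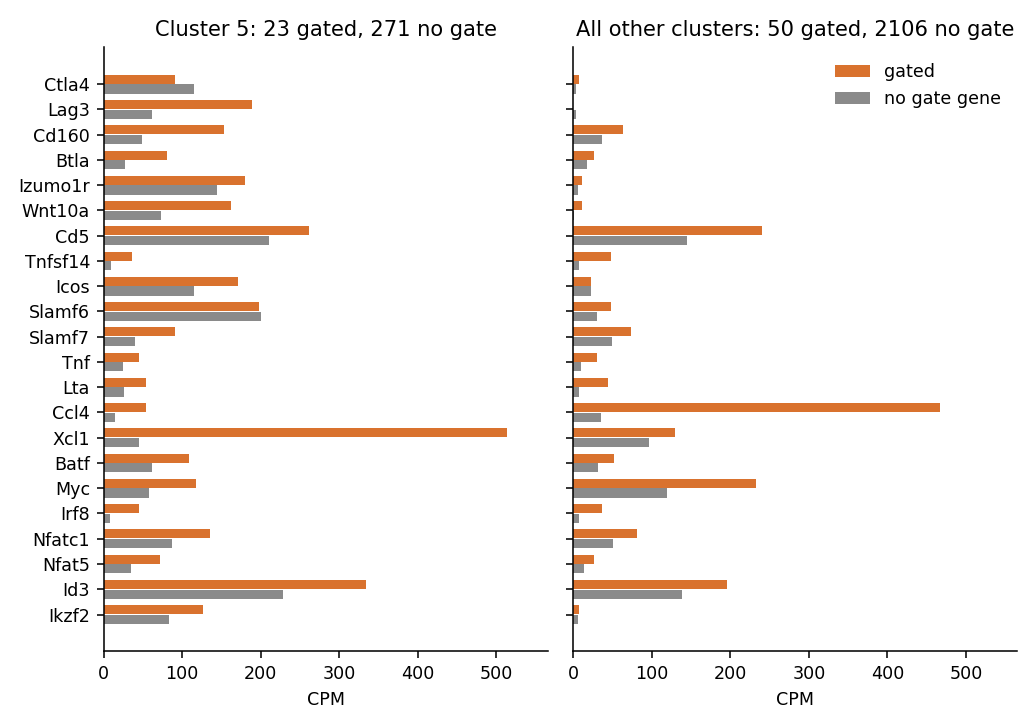
CPM of called genes from the inhibitory, TNF family, cytokine and transcription factor lists, in gated cells and cells with no gate gene, inside cluster 5 and outside it. Xcl1 reaches 514 CPM in gated cells inside, Ccl4 466 CPM in those outside (142 CPM without 1 cell), and the 21 Lag3 UMIs of gated cells all lie inside.

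The receptor sequences were not used by the gate. A clone, the same TRB and TRA CDR3 nucleotides, could be given to 45 of 73 gated cells (61.6%, 49.5 to 72.8%) and to 69.1% of comparison cells. The 45 cells held 45 different clones, so no 2 gated cells shared one. An expanded clone, of at least 2 lymph node cells, was found in 3 of the 45 (6.67%, 1.40 to 18.3%) and in 3.59% of 1642 comparison cells (2.75 to 4.61%). With at least 3000 UMIs per cell it was 0 of 38 gated cells. No gated cell had a clone also found in skin (a floor of 3 counts allows up to 6.67%, and the exact interval reaches 7.87%), against 16 of 1642 comparison cells (0.97%). At this depth a difference in either share was not detectable. Barcodes with 2 or more TRB sequences, which can hold 2 cells, made up 13.6% of gated cells with a TRB (9 of 66), 10.2% of comparison cells and 14.9% of cells with 1 gate gene.

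Segment use was spread widely. TRBV12-1 was the commonest TRBV segment of the gated clones, in 6 of 45 (13.3%, 5.05 to 26.8%) against 7.88% of 1625 clones of comparison cells. TRBV31 was used by 4 (8.89%, 2.48 to 21.2%) against 2.34% (1.66 to 3.20%), and TRAV7-5 by 4 against 1.85% (1.25 to 2.63%). The segments were singled out after their values were seen. Of the 3 expanded clones, 2 had their other cell in the gene table, and neither of those cells showed a gate gene. The CDR3 nucleotides of these 2 clones are given because each pairs a gated cell with a sister cell outside the gate; both use TRBV12-2 and TRAJ30.
Clone with TRBJ2-2 and TRAV7-4, TRB: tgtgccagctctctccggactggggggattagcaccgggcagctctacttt
Clone with TRBJ2-2 and TRAV7-4, TRA: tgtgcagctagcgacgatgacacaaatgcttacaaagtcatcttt
Clone with TRBJ2-5 and TRAV13-1, TRB: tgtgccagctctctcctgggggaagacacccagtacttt
Clone with TRBJ2-5 and TRAV13-1, TRA: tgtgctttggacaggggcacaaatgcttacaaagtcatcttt

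In the first clone the gated cell had Nr4a3 and Nfkbid at 2591 UMIs, and its sister none of the gate genes at 2049 UMIs. In the second the gated cell had Nfkbid and Irf4 at 2592 UMIs, and its sister none at 2750 UMIs. Both gated cells fell in cluster 2 and their sisters in clusters 0 and 4. The gated cell was the deeper of the pair in the first clone and the shallower in the second. No gate gene was seen in 81.2% of all cells that met the UMI limit, so sister cells without one are the usual case. Whether clone or depth plays a part was not tested.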

How the data were processed

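Lymph node CD8+CD44+ T cells were profiled by single-cell RNA and TCR sequencing. The deposited gene table gives raw UMI counts of genes in cells; its 4 lanes were combined by the authors. Bowtie, RSEM and mm10 are named in the submitters' processing notes, with no version or step. Deposited receptor tables list contigs with their UMI counts; tissues were read from the tables' names. Productive, full-length, high-confidence TRA and TRB contigs were kept (7423 of 9927 in lymph node, 3603 of 4545 in skin). Cells were joined to clones by barcode, and of 12 gene-table barcodes also in the skin receptor table none was gated. There were 0 value columns without a sample.

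The members and lists were chosen with earlier results of these data known. Total UMIs per cell ran from 461 to 12576. UMIs were summed per side, and log2 ratios used a prior of 1 CPM over genes with at least 100 UMIs. Intervals are exact conditional Poisson for ratios and Clopper-Pearson for shares (scipy 1.17.1). Clusters came from 2000 variable genes without gate and receptor genes, with 30 components, 15 neighbours and resolution 1 (scanpy 1.11.5, igraph 0.11.9). No doublet caller was run; barcodes with 2 or more TRB sequences served as a check. Ratios and intervals were checked on simulated Poisson counts of each side's sum. Those counts do not clump in single cells, so the check cannot show how the intervals hold for these data.

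Named genes were the 15 highest and 15 lowest ratios seen in 10% or more of the cells on the side where they were higher. They also kept their direction in 3 depth ranges and without barcodes of 2 or more TRB. Receptor segment, mitochondrial and ribosomal genes were not eligible. The 3 highest and 2 lowest list members with at least 50 UMIs, identity genes and markers were added; other called members were named after their values were seen. Alternatives changed the gate, depth, scaling, filters, clusters and cells.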

Additional observations from a re-analysis of the deposited data

How the results depend on the processing

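The share of gated cells, 2.49%, moved with the gate: 0.546% with at least 3 gate genes, 1.71% without Egr1, 1.30% without Nfkbid and 1.81% without Tnfrsf9 in it, 4.23% with 2 gate UMIs in sum and 1.02% after thinning. It was 1.94% without cluster 5 and 6.50% within it. The counts of genes higher in gated cells (840) and genes lower in gated cells (735) became 1849 and 1752 with at least 3 gate genes, 1470 and 1330 without Nfkbid, and 1348 and 1163 after thinning. They became 384 and 325 with a prior of 10 CPM, 1389 and 1330 without a filter, 267 and 190 from 300 UMIs, 102 and 166 within cluster 5, and 336 and 96 with the interval. The lower count was 419 with 2 gate UMIs in sum. The NF-κB median of 0.52 became 1.03 with at least 3 gate genes and 0.19 without the 5 cells with 4 or more. The TNF family median was 0.066 within cluster 5, where 7 of its genes had 100 UMIs. The share of expanded clones among gated cells became 0% with at least 3 gate genes (0 of 9 cells), without Nfkbid (0 of 23) and from 3000 UMIs per cell (0 of 38). The cause of these changes was not tested. Gzmb reversed to -4.12 with at least 3 gate genes and without its 1 cell, -4.08 without Tnfrsf9, -4.11 without Irf4, -4.46 after thinning, -3.99 without barcodes of 2 or more TRB and -2.54 within cluster 5. Dusp10 (-0.26) and Cd74 (-0.19) reversed without cluster 5, Xcl1 (-0.022) without cluster 5 and its largest cell there, and Ifit1 (-1.19) and Isg15 (-0.050) within it. Median-of-ratios scaling shifted all ratios by 0.09. The medians of the transcription factor and inhibitory lists were above 0 in every alternative that gave one, from 0.63 to 1.74 and from 0.56 to 1.33. Alternatives on the cells with 4 or more gate genes, on cluster 5, on the interval and on each gene's largest cell were chosen after seeing the data. No paired analysis was possible because the lanes that share numbers were pooled into 1 table by the authors, which also leaves no replicate to leave out. The 381183 UMIs of the gated cells limit low genes: 3 counts equal 7.87 CPM.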

Other observations

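Among genes outside every list, Cd274, which encodes the PD-1 ligand PD-L1, had 13 UMIs in 11 gated cells, 34.1 against 8.21 CPM (log2 ratio 1.93, counting interval 1.09 to 2.90). It was singled out after its values were seen. Of the B cell marker list, Cd74, the MHC class II invariant chain, was the called member, with 26 UMIs in 10 gated cells, of which 24 UMIs lay in cluster 5.

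The transcription factor list was also read by gate gene. In gated cells the median log2 ratio of the TCR-induced transcription factors was 1.86 for the 17 cells with Nr4a1, 1.44 for the 21 with Nr4a3, 1.05 for the 32 with Egr1, 1.03 for the 20 with Irf4, 0.96 for the 49 with Nfkbid and 0.78 for the 30 with Tnfrsf9. These sets of cells overlap, all 5 cells with 4 or 5 gate genes hold both Nr4a1 and Nr4a3, and the differences were not tested. In cells where only 1 gate gene was seen, the same median was between 0.03 (Irf4, 28 cells) and 0.63 (Tnfrsf9, 72 cells).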
